A study of Mus musculus with 9 samples.

Results

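Mouse MLL-AF9 leukemia cells that carried doxycycline-inducible reprogramming factors were compared after 72 h and after 48 h of doxycycline (Dox). The comparison used the 3 arrays labelled Dox 72 h and the 3 labelled Dox 48 h, 6 of the 9 arrays of the series, and the 3 arrays of mice without Dox (control) served to say where a level stood before induction. All 3 groups held the same leukemia, driven by the human MLL-AF9 fusion gene delivered by retrovirus together with GFP, and all carried Oct4, Sox2, Klf4 and c-Myc (OSKM) under a tetO promoter. The cells had been transplanted into sub-lethally irradiated C57BL/6J mice, grown until they filled a large part of the bone marrow, exposed to Dox through the drinking water, and sorted from the spleen. The age of the mice was not given in the sources used here, and each group was 1 time point of 1 transplanted leukemia model. Control mice had no Dox, so effects of the drug and of OSKM could not be told apart. The replicates are labelled biological, with no statement that they were separate mice. The p-values therefore measure only the spread between these samples, which may be partly technical.

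Reprogramming factors act by binding regulatory DNA and redirecting which genes a cell transcribes. In blood cells Klf4 is also known as a factor of the monocyte lineage, the lineage that yields circulating phagocytes, macrophages and some dendritic cells. In mice, patrolling (nonclassical) monocytes depend on the nuclear receptor Nr4a1, and monocytes in general carry scavenger, Toll-like and C-type lectin receptors that recognise microbes and dying cells. Interferons switch on antiviral genes and, in myeloid cells, the machinery that presents antigen on MHC molecules.

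Each value is the log2 intensity of a probe set, the group of array probes that reads 1 transcript, and a difference of 1 is a 2-fold difference. Each of 22180 genes was represented by its brightest probe set that was annotated to that gene alone. The 3 groups were fitted together with limma, and adjusted p is the Benjamini-Hochberg value over the whole array of 41345 probe sets (threshold 0.05). The difference is always 72 h minus 48 h unless another pair is named. Over all genes its median was 0.0126, and it was above 0 in 11878 of the 22180 genes. The medians of all probe sets on the 9 arrays lay between 3.71 and 3.87. Of the markers of myeloid leukemia cells, 12 of 12 were measured. Their mean level was 9.86 to 9.97 on the Dox 72 h arrays and 9.996 to 10.09 on the Dox 48 h arrays. Markers of other cells did not stand level across the arrays. The 14 marker lists covered other blood cells, endothelial cells, stromal cells and the myeloid leukemia itself. All but the stromal and leukemia lists, 12 of 14, were highest, among the 6 Dox arrays, on the third Dox 72 h array. Results that this array or any other decides are given with and without it.

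The change between 48 h and 72 h was almost entirely a loss. After 72 h, 63 genes were lower than after 48 h (0.284% of genes tested) and 2 were higher (0.00902%). Among probe sets of every kind 86 were lower and 3 higher, 0.215% of all. The 63 lower genes differed by 1.44-fold to 8.8-fold, with a median of 2.36-fold. In all 65 genes past the threshold the 3 arrays of one time lay wholly above the 3 of the other, which was true of 16.6% of all genes. At an unadjusted p under 0.05 the directions were about even, with 1448 genes lower and 1347 higher.

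**Figure D1:**
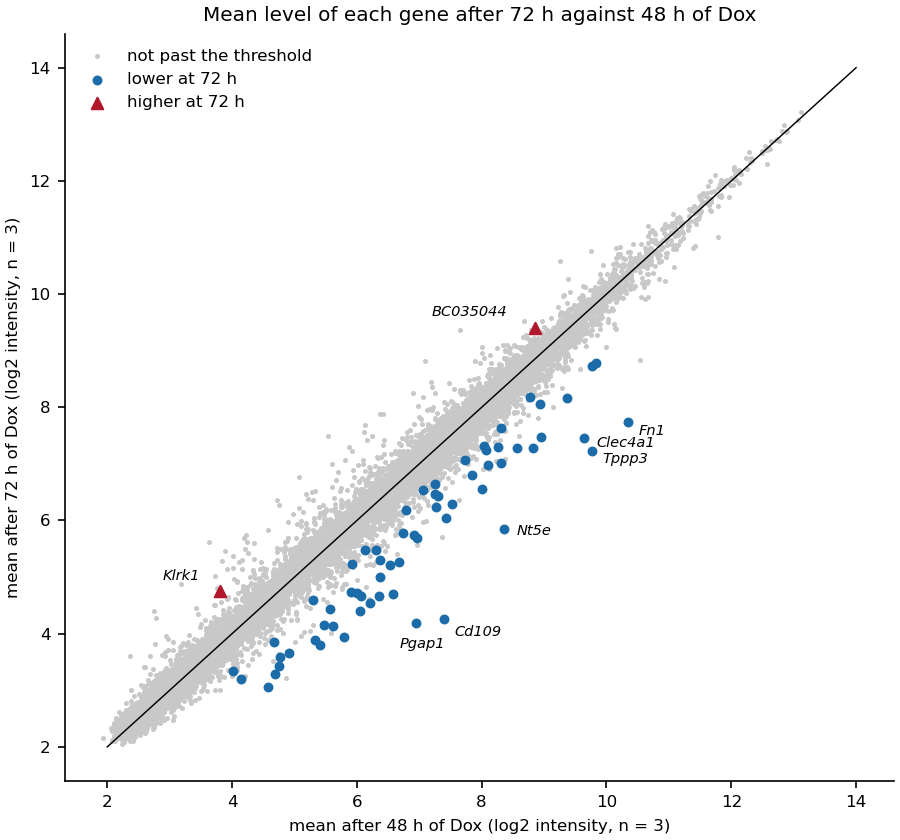
Mean log2 intensity of each of 22180 genes after 72 h of Dox (vertical axis) against 48 h of Dox (horizontal axis), n = 3 arrays each, with the line of equality. The 63 genes lower after 72 h (circles) lie up to 3.14 below the line, and the 2 higher genes (triangles) lie above it by 0.54 and 0.95.

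How many genes passed depended on every array. The count of lower genes was 13 without Dox 72 h replicate 1, 24 without replicate 2 and 13 without replicate 3 of that time. It was 41, 15 and 19 without Dox 48 h replicates 1, 2 and 3, and 30, 28 and 39 without control replicates 1, 2 and 3. In all 65 genes the direction was the same in each of these 9 fits. The 12 genes that stayed past the threshold in every one of the 9 fits were Cd109, Pgap1, Fn1, Tppp3, Nt5e, Cyp11a1, Nr4a1, Abca1, Cd86, Myadm, Pi16 and Emp1, all lower after 72 h (Myadm and Emp1 were named after their values were seen). Cyp11a1 had the same value on all Dox 72 h arrays, so its spread there was 0.

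Most of the loss was a reversal of what the first 48 h had raised. Of the 63 lower genes, 54 had been above control at 48 h. Of these 54, 41 were not past the threshold against control at 72 h, 12 were still above control and 1, Pi16, was below it. They had lost between 34.7% and 203% of their log2 rise, with a median of 82.8%, where 100% is a return to the control mean. No gene called lower than control at 48 h was called higher at 72 h than at 48 h. These counts share the 48 h arrays between both comparisons, so a value that was high by chance at 48 h enters the rise and the fall alike.

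**Figure D2:**
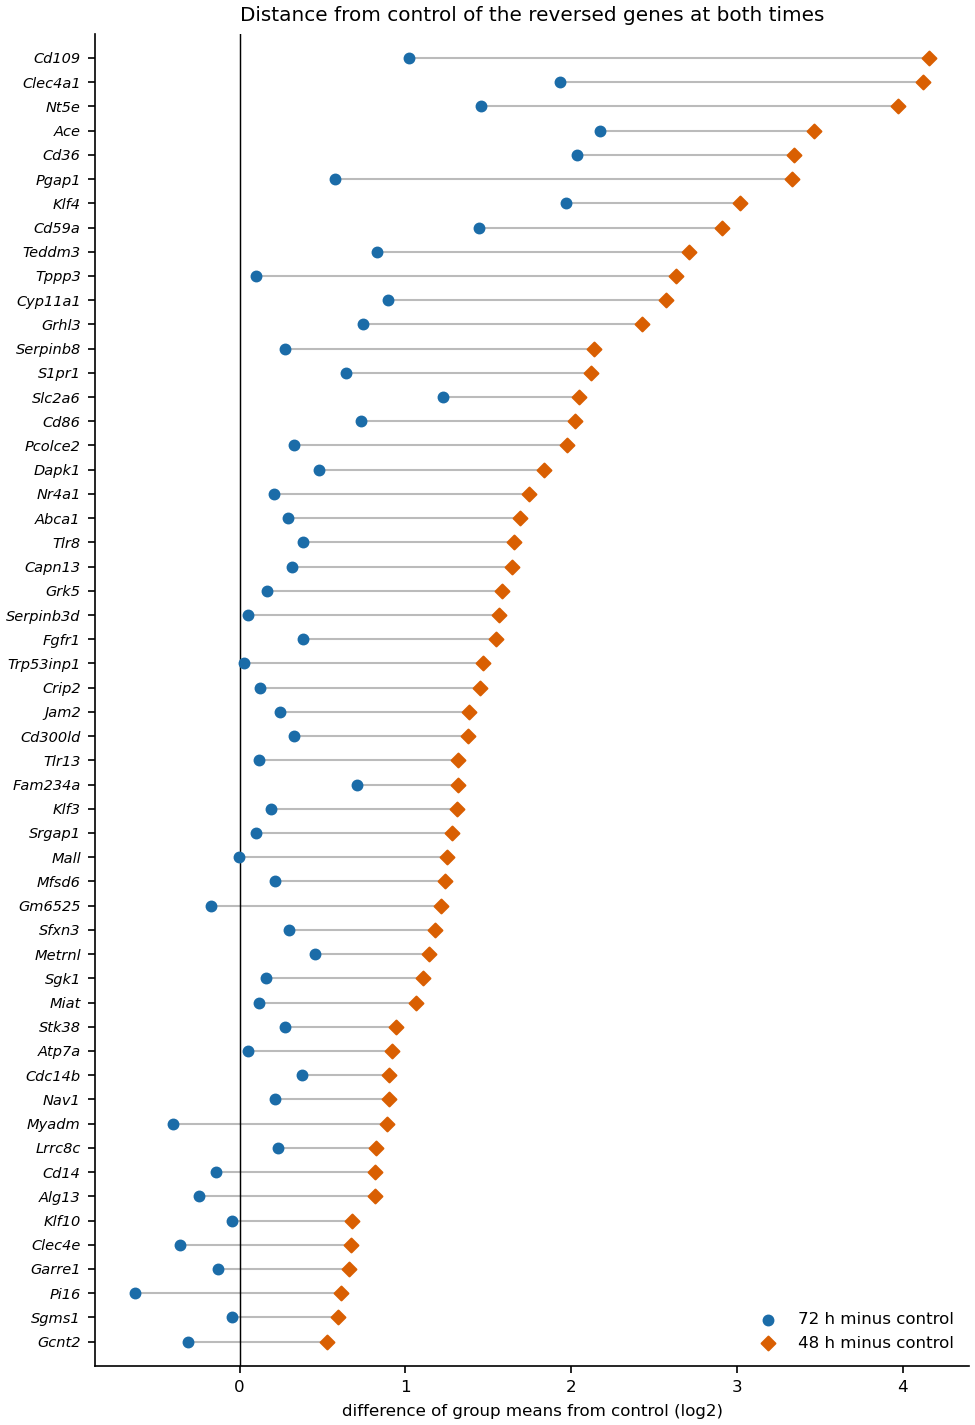
Difference of the group mean from the control mean (log2) after 72 h of Dox (circles) and after 48 h of Dox (diamonds) for the 54 genes that were above control at 48 h and lower at 72 h than at 48 h. Grey lines join both times of a gene, and most circles lie close to the zero line, Klf4, Ace, Cd36 and Clec4a1 being among those that stayed well to its right.

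Over all genes that 48 h of Dox had moved, part of the distance from control remained at 72 h. Of 22180 genes, 394 were above control at 48 h (1.78%) and 160 below it (0.721%). The 394 genes stood a median of 0.82 above control at 48 h and 0.47 above it at 72 h. They were chosen for high values at 48 h, so a smaller median at 72 h can come from that choice alone. Of the 394, 182 were also called above control at 72 h. The 160 genes stood 0.69 and 0.64 below control in the median at 48 h and 72 h (log2 differences of -0.69 and -0.64), and 109 were called below control at both times. At 72 h, 393 genes were above control (1.77%) and 286 below it (1.29%).

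Among the 20 largest losses, Cd109, Pgap1, Nt5e and Cd59a encode proteins of the cell surface or of its lipid anchors. Cd109, a surface protein that binds TGF-beta and is held by a glycosylphosphatidylinositol (GPI) anchor, had 4.09, 4.54 and 4.16 after 72 h, against 7.46, 7.29 and 7.44 after 48 h. The control arrays had 3.26, 3.40 and 3.05, so all 3 Dox 72 h arrays lay between control and 48 h. The difference was -3.14 ± 0.137 (standard error of the fit), an 8.8-fold lower level (adjusted p = 0.000417), and Cd109 remained above control at 72 h (1.02, adjusted p = 0.0118). Pgap1, an enzyme of the endoplasmic reticulum that remodels GPI anchors, had 4.10, 4.20 and 4.27 after 72 h, against 6.62, 7.10 and 7.12 after 48 h. The controls had 3.44, 3.62 and 3.78, and the difference of -2.75 ± 0.147 took back 82.7% of the rise (adjusted p = 0.000555).

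Nt5e (CD73), the GPI-anchored enzyme that makes adenosine from AMP, had 5.50, 6.03 and 6.02 after 72 h, against 8.49, 8.48 and 8.13 after 48 h. It was 5.71-fold lower (adjusted p = 0.00211) and still 1.46 above control on the log2 scale. Cd59a, a GPI-anchored inhibitor of the complement membrane attack complex, had 7.16, 7.64 and 7.64 after 72 h, against 8.83, 9.12 and 8.90 after 48 h, a difference of -1.47 that took back 50.4% of its rise (adjusted p = 0.0137). Its adjusted p was up to 0.0567 without an array, past the threshold in 7 of 9 such fits and not without Dox 48 h replicate 2 or 3. Cd109, Pgap1, Nt5e, Cd59a, Tppp3, Fn1, Pi16 and Teddm3 formed a list of genes high at 48 h that earlier looks at these samples had chosen. All 8 were lower after 72 h, with a median difference of -2.524, which is a description and no independent evidence.

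Tppp3, a protein that binds tubulin, returned to the control level, with 7.45, 7.49 and 6.77 after 72 h, against 9.85, 9.85 and 9.61 after 48 h and 7.05, 6.97 and 7.39 in controls. It was 5.8-fold lower (adjusted p = 0.00621) and had lost 96.3% of its rise. Teddm3, for which no role is given here, had 4.70 on all 3 Dox 72 h arrays, against 6.56, 6.81 and 6.38 after 48 h (adjusted p = 0.0362). A dimmer probe set of the same gene differed by -1.73 (adjusted p = 0.0479). The call of Teddm3 held in only 2 of the 9 fits that left out an array, those without control replicate 1 or 2, and its adjusted p reached 0.174. An identical value on 3 arrays of a group is a feature of the deposited values, found at 72 h in 279 genes (1.26%).

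**Figure D3:**
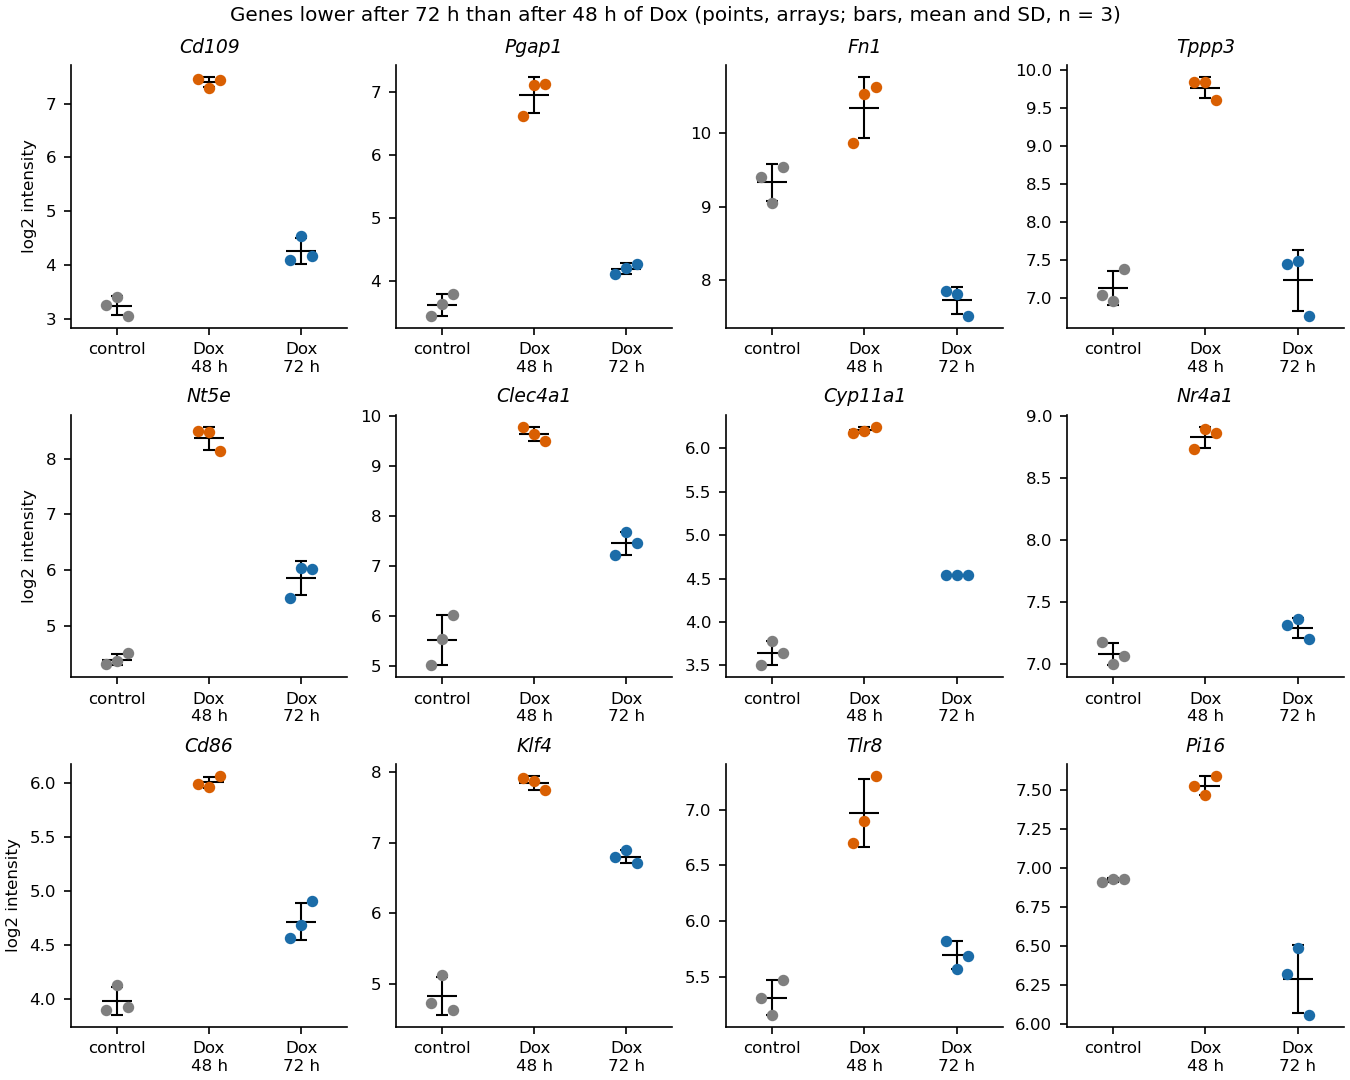
Log2 intensity (vertical axes, each with its own range) of 12 genes lower after 72 h than after 48 h of Dox, by group (control, Dox 48 h, Dox 72 h). Points are arrays and bars the mean and SD (n = 3), and in every panel the 3 Dox 72 h points lie below the 3 Dox 48 h points.

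Some genes of patrolling monocytes were among those that came down. Nr4a1, the nuclear receptor that these cells need in mice, had 7.31, 7.36 and 7.2 after 72 h, against 8.73, 8.89 and 8.86 after 48 h. The controls had 7.18, 7.0 and 7.06, so at 72 h its arrays stood just above the control range. The difference was -1.54 ± 0.0804 (adjusted p = 0.000555), with 88.1% of the rise lost. Of the 19 immediate early genes measured, the group that answers signals within minutes and to which Nr4a1 belongs, only Nr4a1 passed the threshold, although 15 of the 19 differences were below 0 and their median was -0.232. That median was -0.102 without Dox 72 h replicate 1 and -0.441 without Dox 72 h replicate 2.

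Clec4a1, a C-type lectin receptor of myeloid cells, had 7.22, 7.67 and 7.45 after 72 h, against 9.78, 9.63 and 9.5 after 48 h. Controls stood at 5.01, 5.53 and 6.01, so 53.1% of the rise was gone (difference -2.19, adjusted p = 0.0194). Cd36, a scavenger receptor for lipids, had 5.12, 5.21 and 5.30 after 72 h, against 6.32, 6.46 and 6.79 after 48 h (-1.31, adjusted p = 0.0185). Ace, the angiotensin-converting enzyme, had 7.07, 6.87 and 7.11 after 72 h, against 8.20, 8.05 and 8.69 after 48 h (-1.29, adjusted p = 0.028). Cd36 and Ace kept most of their rise, standing 2.03 and 2.17 above control at 72 h. Calls of these 3 genes were not stable to single arrays: Clec4a1 passed in 3 of 9 fits (adjusted p up to 0.0967, lost without any 1 of the 6 Dox arrays), Cd36 in 5 (up to 0.0798) and Ace in 1 (up to 0.103, held only without Dox 48 h replicate 3). Cd36 lost its call without Dox 48 h replicate 2 or any 1 of the Dox 72 h replicates.

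The list of nonclassical monocyte genes had 4 of 14 measured members lower (Nr4a1, Cd36, Clec4a1 and Ace) and 0 higher. Of all genes 0.284% were lower and 0.00902% higher. The list had a median difference of -0.14 against 0.013 over all genes, and 3 of its 14 differences were above 0. The chemokine receptor Cx3cr1, named after its values were seen, differed by 0.24 (adjusted p = 0.704). The wider list of monocyte and macrophage genes had 4 of 23 lower (Nr4a1, Cd14, Klf4 and Ace), 0 higher by limma (4 at an unadjusted p under 0.05) and a median of -0.023, which was -0.103 without Dox 72 h replicate 3 and 0.037 without Dox 72 h replicate 1. Red pulp macrophage markers, whose median was -0.137, lay in the same direction, and their part in these differences was not tested. In the wider list the levels that 48 h had raised were thus kept by some members and lost by others. Csf1r, the receptor for the macrophage growth factor, differed by -0.02, and Ccr2, the receptor that draws monocytes out of the bone marrow, by -0.15, both being above control at both times. Irf8, a factor of monocyte and dendritic cell development, had 8.57, 8.75 and 8.97 after 72 h, against 8.50, 8.12 and 8.23 after 48 h, a difference of 0.48 that did not pass (adjusted p = 0.199). In bulk samples fewer cells of a type and less RNA per cell cannot be told apart.

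Some receptors that sense microbes were also lower. Tlr8, an endosomal receptor for RNA, had 5.82, 5.57 and 5.69 after 72 h, against 6.70, 6.90 and 7.30 after 48 h (-1.28, adjusted p = 0.0274). Tlr13, a mouse receptor for bacterial ribosomal RNA, had 8.35, 8.37 and 7.78 after 72 h, against 9.29, 9.52 and 9.28 after 48 h (-1.20, adjusted p = 0.0431). Cd14, the GPI-anchored co-receptor for lipopolysaccharide, had 7.12, 7.56 and 7.21 after 72 h, against 8.22, 8.24 and 8.31 after 48 h (-0.96, adjusted p = 0.0272). The Dox 72 h arrays overlapped the control range in Tlr13 and Cd14 and lay just above it in Tlr8, and none was past the threshold against control. These 3 were the only called members of 16 Toll-like receptors and adaptors, where 0.284% of all genes were lower. The median difference of the list was -0.206, and 3 of its 16 differences were above 0. Unc93b1 differed by 0.32 (adjusted p = 0.223). The calls of Tlr8, Tlr13 and Cd14 were fragile. They held in 1 of 9 fits for Tlr8 (without Dox 48 h replicate 1, adjusted p up to 0.118), 0 for Tlr13 (0.0652 to 0.183) and 1 for Cd14 (without Dox 72 h replicate 2, up to 0.119).

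Among 13 C-type lectin receptors of myeloid cells 2 were lower, Clec4a1 and Clec4e, where 0.284% of all genes were lower. Clec4e, a receptor for mycobacterial glycolipid, differed by -1.03 (adjusted p = 0.0292). Its adjusted p was up to 0.141 without an array, and its call held only without control replicate 3 or Dox 72 h replicate 2. Clec4a3 had 7.71, 7.70 and 7.71 after 72 h, against 8.61, 8.51 and 8.53 after 48 h, and did not pass (adjusted p = 0.0742). Clec7a (Dectin-1), a receptor for fungal beta-glucan, ran the other way, with 8.53, 8.45 and 8.60 after 72 h, against 8.04, 7.89 and 7.90 after 48 h (0.58, adjusted p = 0.0861). Neighbouring members of this family thus had differences of opposite sign without overlap of their arrays, Clec4a1 and Clec4e past the threshold and Clec4a3 and Clec7a not.

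Cd86, a co-stimulatory ligand for T cells, had 4.56, 4.68 and 4.90 after 72 h, against 5.99, 5.96 and 6.06 after 48 h (-1.29, adjusted p = 0.00621). It was the only called member of 15 co-stimulation and checkpoint ligands. It remained 0.73 above control, with no overlap between any pair of the 3 groups. Cd80, the other ligand of the same T cell receptors, had a difference of -0.26 (adjusted p = 0.583).

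Cyp11a1, Abca1 and S1pr1, also among the 20 largest losses, act on or bind lipids, while of 14 measured cholesterol synthesis genes (of 18 on the list, under 80%) 0 passed by limma (1 at an unadjusted p under 0.05, median -0.085). Cyp11a1, the mitochondrial enzyme that begins steroid synthesis from cholesterol, had 4.54 on all 3 arrays after 72 h, against 6.18, 6.20 and 6.25 after 48 h and 3.50, 3.78 and 3.64 in controls. The difference was -1.67 (adjusted p = 0.000417), and a dimmer probe set of this gene differed by -0.14 (adjusted p = 0.577). The equal values after 72 h are the feature of the deposited values met in Teddm3. Their spread of 0 lowers the standard error behind the p-values of Cyp11a1. Abca1, the exporter of cellular cholesterol, had 4.77, 4.56 and 4.69 after 72 h, against 5.87, 6.05 and 6.30 after 48 h (-1.40, adjusted p = 0.00649). S1pr1, a receptor for sphingosine 1-phosphate that guides lymphocyte exit, had 3.92, 4.02 and 4.47 after 72 h, against 5.56, 5.34 and 5.94 after 48 h (-1.48, adjusted p = 0.0381), and its call was lost without any 1 array, at adjusted p of 0.0553 to 0.112. All 3 had risen by 48 h and fell afterwards, Cyp11a1 alone of them staying above control (0.90, adjusted p = 0.00269).

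Of the remaining genes among the 20 largest losses, Serpinb8 and Serpinb3d are protease inhibitors. Serpinb8 had 3.66, 4.08 and 4.08 after 72 h, against 5.76, 5.56 and 6.08 after 48 h (-1.86, adjusted p = 0.0137). Serpinb3d had 2.83, 3.09 and 3.24 after 72 h, against 4.91, 4.34 and 4.46 after 48 h (-1.52, adjusted p = 0.0228). In both the Dox 72 h arrays overlapped the control range. Serpinb8 passed in 7 of 9 fits (not without Dox 72 h replicate 1 or 3, up to 0.0651) and Serpinb3d in 3 (held without control replicate 1 or 3 or Dox 48 h replicate 1, up to 0.0798).

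Grhl3, a transcription factor of epithelia, had 4.84, 4.89 and 4.28 after 72 h, against 6.04, 6.37 and 6.65 after 48 h (-1.68, adjusted p = 0.0242). Pcolce2, an enhancer of procollagen processing, had 4.19, 4.69 and 4.31 after 72 h, against 6.42, 5.99 and 5.72 after 48 h (-1.65, adjusted p = 0.0362). Grk5, a kinase that desensitises G protein-coupled receptors, had 5.12, 5.35 and 5.33 after 72 h, against 6.37, 6.85 and 6.82 after 48 h (-1.41, adjusted p = 0.0137). None of the 3 was past the threshold against control at 72 h. Without an array the adjusted p reached 0.113 for Grhl3 (held only without Dox 48 h replicate 1), 0.159 for Pcolce2 (held only without control replicate 3) and 0.0651 for Grk5 (lost without Dox 48 h replicate 2 or 3 or Dox 72 h replicate 1 or 3).

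Trp53inp1, a stress protein known as a target of p53, had 6.53, 6.64 and 6.49 after 72 h, against 7.90, 8.40 and 7.70 after 48 h. The controls had 6.42, 6.42 and 6.74, so the rise was gone (98.3% lost, difference -1.44, adjusted p = 0.0272, up to 0.109 without an array and held only without control replicate 3 or Dox 48 h replicate 2 or 3). It was the only called member of 21 measured p53 targets, whose median difference was -0.086. Cdkn1a, the cell cycle inhibitor of this group, differed by -0.49 (adjusted p = 0.297), and Perp, a cell junction and death gene, by -0.51 (adjusted p = 0.154). The pro-apoptotic Bbc3 differed by 0.08 (adjusted p = 0.855).

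Klf4 itself, 1 of the 4 factors of the inducible cassette, was lower at 72 h than at 48 h. It was the only 1 of the 4 called above control, at 48 h and at 72 h alike. It had 6.80, 6.89 and 6.71 after 72 h, against 7.92, 7.88 and 7.74 after 48 h and 4.73, 5.13 and 4.63 in controls. The difference was -1.05 ± 0.129 (2.06-fold, adjusted p = 0.028), the smallest share of a rise lost among the 54 reversed genes, 34.7%. Its call held in 2 of 9 fits, those without control replicate 2 or 3, with adjusted p up to 0.135. Pou5f1 (Oct4) had 4.88, 4.99 and 4.61 after 72 h, against 4.91, 5.13 and 4.83 after 48 h (adjusted p = 0.783). Sox2 had 2.95, 2.95 and 2.96 after 72 h, against 2.95, 2.99 and 2.85 after 48 h (adjusted p = 0.912), and Myc 8.12, 8.29 and 8.23, against 8.29, 8.12 and 8.04 (adjusted p = 0.857). The arrays of both times overlapped for these 3 factors, and none of the 3 was called above control at either time. Sox2 lay near the lower quartile of all probe sets, 2.91 to 2.96 on the 9 arrays, so its probe set could not show a fall. Where the probes of the 4 factors, Klf4 included, lie relative to the inducible cassette is not given in the sources used here, so whether these levels include the cassette's transcripts is not known. Klf3 (-1.12), Klf9 (-1.39) and Klf10 (-0.72), relatives of Klf4 named after their values were seen except Klf9, were lower too (adjusted p between 0.0242 and 0.0267). Klf3 passed only without control replicate 1 or 2 (up to 0.109), and Klf10 in 0 of the 9 fits (0.0512 to 0.119).

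Promoters were read for the genes that fell together, and 4 of them are shown because they belong to genes described above and hold a GC box, the element bound by Sp1 and many Klf factors. They are the 250 bases before the annotated start in RefSeq, build GRCm38.p6, written on the strand of the gene, with each GC box (GGGGCGGGG on either strand) in capitals. Pgap1 lies at chr1:54557685-54557934 (minus strand), Nt5e at chr9:88327359-88327608 (plus), Nr4a1 at chr15:101266596-101266845 (plus) and Klf4 at chr4:55532476-55532725 (minus).
Pgap1: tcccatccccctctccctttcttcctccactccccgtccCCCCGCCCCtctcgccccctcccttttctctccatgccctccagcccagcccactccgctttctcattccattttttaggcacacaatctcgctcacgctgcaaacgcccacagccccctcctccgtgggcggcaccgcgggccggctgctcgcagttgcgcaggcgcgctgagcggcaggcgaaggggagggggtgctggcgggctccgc
Nt5e: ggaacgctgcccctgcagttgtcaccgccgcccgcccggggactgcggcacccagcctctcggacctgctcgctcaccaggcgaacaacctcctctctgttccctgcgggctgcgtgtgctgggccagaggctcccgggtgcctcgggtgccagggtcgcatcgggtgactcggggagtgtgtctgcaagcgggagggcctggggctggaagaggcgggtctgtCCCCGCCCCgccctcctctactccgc
Nr4a1: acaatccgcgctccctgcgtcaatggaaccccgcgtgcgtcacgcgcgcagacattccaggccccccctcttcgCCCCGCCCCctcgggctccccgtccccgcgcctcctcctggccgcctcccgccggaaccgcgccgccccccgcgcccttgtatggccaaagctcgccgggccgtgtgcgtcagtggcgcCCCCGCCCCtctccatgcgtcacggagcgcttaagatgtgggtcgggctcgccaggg
Klf4: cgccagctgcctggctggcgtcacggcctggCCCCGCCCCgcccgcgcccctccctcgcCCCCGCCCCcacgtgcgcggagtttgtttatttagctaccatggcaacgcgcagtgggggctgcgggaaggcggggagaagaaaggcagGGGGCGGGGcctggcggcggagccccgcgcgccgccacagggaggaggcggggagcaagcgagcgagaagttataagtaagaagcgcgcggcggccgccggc
Nt5e held its GC box 26 to 18 bases before the start and Pgap1 211 to 203, and Klf4 had 3 and Nr4a1 2. Nr4a1 also held 4 copies of TGACG, the core of the cAMP response element, none of which overlaps its GC boxes. Of the 63 lower genes, 50 matched a promoter by symbol. A GC box stood in 12 of the 50 (24.0%), against 10.5% of 27025 promoters of the same length, the first listed for each gene. The Klf-type element GGGNGTGG stood in 12 (24.0%, against 15.8%), TGACG in 12 (24.0%, against 17.9%) and the Oct4-type octamer ATGCAAAT in 0 (against 1.6%), all on both strands. The 27025 promoters were not limited to genes tested or expressed here, so the shares are not matched for expression. These motifs were chosen after the genes were known, and a match is a description of letters, not of binding.

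A smaller set of losses was classed as added after 48 h, in genes that had not been past the threshold at 48 h and stood below control at 72 h. It held 6 genes, Fn1, Dhrs9, Klf9, Pmp22, Emp1 and Dennd4a (Pmp22, Emp1 and Dennd4a were named after their values were seen). Fn1 encodes fibronectin, a matrix protein that macrophages also make, and had 7.86, 7.81 and 7.52 after 72 h, against 9.87, 10.54 and 10.63 after 48 h. Controls had 9.41, 9.05 and 9.54, so Fn1 stood 1.02 above control at 48 h (adjusted p = 0.0746) and 1.60 below control at 72 h (adjusted p = 0.0122). The difference of -2.62 ± 0.217 was 6.13-fold (adjusted p = 0.00649).

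Dhrs9, a dehydrogenase of retinol, had 3.94, 4.0 and 3.49 after 72 h, against 5.19, 5.63 and 5.42 after 48 h (-1.61, adjusted p = 0.0272). Klf9 had 5.93, 6.24 and 5.97 after 72 h, against 7.2, 7.82 and 7.28 after 48 h (-1.39, adjusted p = 0.0267). Emp1, a membrane protein of the same family as Pmp22, had 3.86, 3.83 and 3.86 after 72 h, against 4.61, 4.66 and 4.75 after 48 h (-0.82, adjusted p = 0.00621). In these 3 genes the controls were nearer to the 48 h than to the 72 h arrays, at means of 4.87, 7.01 and 4.54. At 48 h Dhrs9 stood 0.54 above control (adjusted p = 0.354), Klf9 0.43 (adjusted p = 0.405) and Emp1 0.13 (adjusted p = 0.59). A value short of the threshold at 48 h does not show that a gene had not risen by then. A dimmer probe set of Emp1 differed by -0.01 (adjusted p = 0.962). Pmp22, a myelin and membrane protein, differed by -1.17 (adjusted p = 0.0479), and Dennd4a, a regulator of Rab proteins, by -0.67 (adjusted p = 0.0479). Calls of these genes other than Fn1 and Emp1 held in few of the 9 fits without an array. Dhrs9 passed only without control replicate 1 or 3 (adjusted p up to 0.124), Klf9 only without Dox 48 h replicate 1 or 2 (0.107), Pmp22 only without Dox 72 h replicate 2 (0.185) and Dennd4a only without Dox 48 h replicate 1 (0.185).

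Pi16, a peptidase inhibitor, was the only gene called above control at 48 h and below control at 72 h. It had 6.32, 6.49 and 6.06 after 72 h, against 7.53, 7.47 and 7.59 after 48 h, and the controls lay between them at 6.91, 6.93 and 6.93. The difference was -1.24 ± 0.104 (adjusted p = 0.00649). Tgfbr2, the type II receptor for TGF-beta, and Upk1a, a tetraspanin of urothelium, were lower after 72 h (-0.60 and -0.69) without passing against control at either time, and both were named after their values were seen. Both lost their calls without any 1 array, at adjusted p up to 0.152 and 0.139.

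Beyond single genes, 211 genes were above control at 72 h without having passed at 48 h, and 176 were below it. Of these, only 2 and 6 passed the direct test of 72 h against 48 h, so for the others a difference between the times was not shown.

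The 2 genes that rose were Klrk1 and BC035044 (BC035044 was named after its values were seen). Klrk1 encodes NKG2D, an activating receptor of natural killer (NK) and T cells, and had 4.65, 4.83 and 4.80 after 72 h, against 4.04, 3.78 and 3.63 after 48 h and 3.89, 3.73 and 3.96 in controls. The difference was 0.95 ± 0.117 (adjusted p = 0.028). The call held only without Dox 48 h replicate 1 and reached an adjusted p of 0.135. BC035044, a protein-coding gene of chromosome 6, had 9.31, 9.43 and 9.46 after 72 h, against 8.93, 8.86 and 8.80 after 48 h (0.54, adjusted p = 0.0426, 0.0602 to 0.183 without an array). The 10 measured NK cell markers, of which Klrk1 is 1, all had differences above 0, with a median of 0.283, or 0.172 without Dox 72 h replicate 3. Their mean level was 4.30, 4.09 and 4.78 on the Dox 72 h arrays, against 3.86, 3.83 and 3.81 on the Dox 48 h arrays. Gzmb, a cytotoxic granule protease of NK and T cells, had 4.76, 3.81 and 6.07 after 72 h, against 3.26, 3.27 and 3.0 after 48 h (adjusted p = 0.269). The part of NK cells in the higher Klrk1 was not tested.

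**Figure D4:**
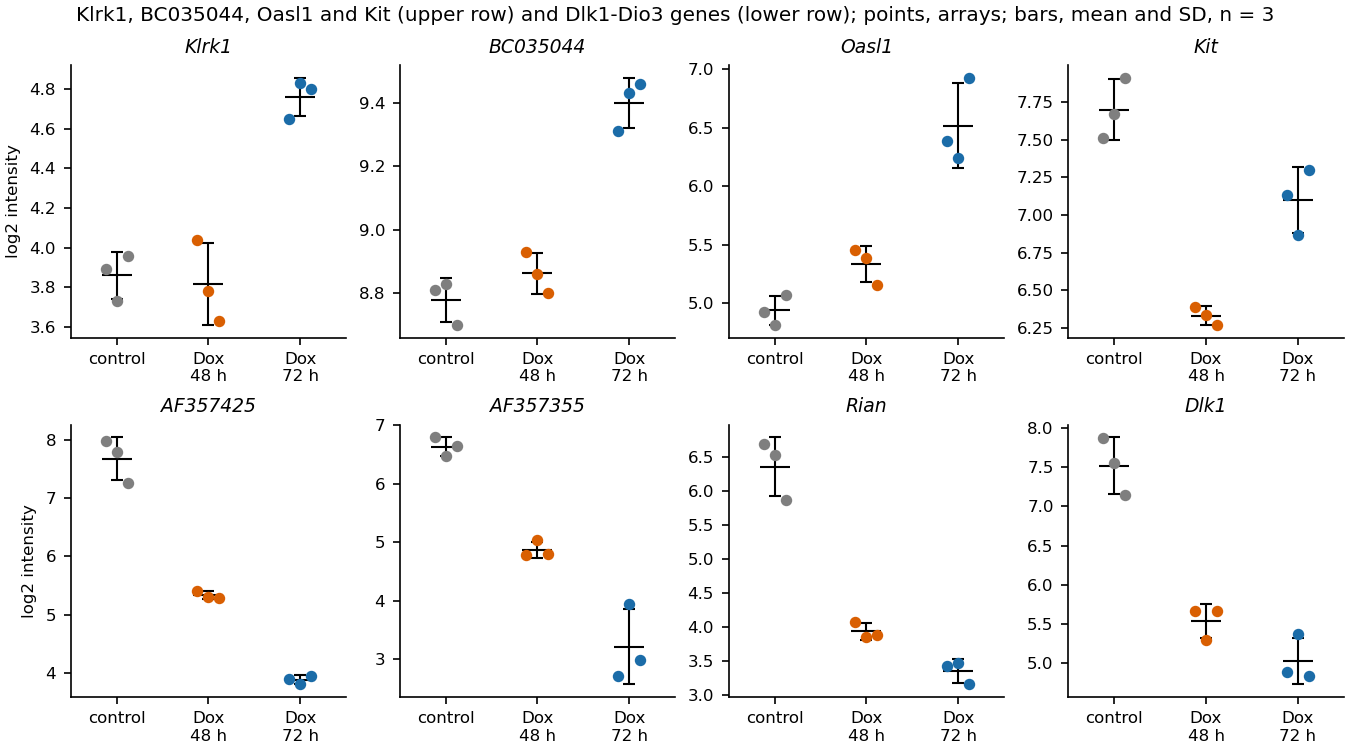
Log2 intensity (vertical axes, each with its own range) by group for Klrk1, BC035044, Oasl1 and Kit (upper row) and for AF357425, AF357355, Rian and Dlk1 of the Dlk1-Dio3 region (lower row). Points are arrays and bars the mean and SD (n = 3). Klrk1, BC035044 and AF357425 passed the threshold for 72 h against 48 h.

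Next in order of p among the rises, none of them past the threshold, came Oasl1, Speer6-ps1, Kit, Vamp8, Ly6h, Grasp, Clec7a, Ramp1 and Ddx4, with adjusted p from 0.0559 to 0.0949. Oasl1, an antiviral protein, had 6.39, 6.24 and 6.93 after 72 h, against 5.46, 5.39 and 5.16 after 48 h (1.19). Kit, the receptor of stem cell factor and a mark of leukemia stem cells in this model, had 7.13, 6.87 and 7.30 after 72 h, against 6.39, 6.34 and 6.27 after 48 h and 7.51, 7.67 and 7.91 in controls. Its arrays at 72 h thus lay between those of 48 h and control, with a difference of 0.77 (adjusted p = 0.0762, past the threshold only where dim probe sets were left out, at 0.0499). Of the 15 stem and progenitor genes with Kit, 10 differences were above 0 and their median was 0.175. Sox4, a progenitor factor, had 7.06, 6.85 and 8.59 after 72 h, against 6.40, 5.94 and 6.40 after 48 h (adjusted p = 0.313), and Cd34 8.15, 7.82 and 9.11, against 7.73, 6.88 and 7.03 (adjusted p = 0.243). In both the third Dox 72 h array was the highest.

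Interferon-induced genes had mostly positive differences, none past the threshold. Oasl1, described above, was the only type I interferon gene past it under another setting (quantile normalization, dim probe sets left out, array weights, or adjustment over genes only). Of 29 measured type I interferon response genes, 25 had differences above 0 and the median was 0.379, with 0 past the threshold by limma and 10 higher at an unadjusted p under 0.05. Their mean level was 7.55, 7.59 and 7.61 on the Dox 72 h arrays. It was 7.44, 7.25 and 6.71 on the Dox 48 h arrays and 5.79, 5.85 and 6.53 in controls. The Dox 72 h arrays were close together and the Dox 48 h arrays were spread, replicate 3 being the lowest. Without that array the median difference was 0.204. Usp18, which dampens interferon signaling, had 8.20, 8.32 and 8.84 after 72 h, against 7.89, 7.2 and 6.46 after 48 h (1.27, adjusted p = 0.352). Irf7, the factor that drives interferon genes, had 8.85, 8.79 and 8.98, against 8.39, 8.22 and 7.50 (0.83, adjusted p = 0.343).

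GTPases and chemokines induced by interferon gamma had a median difference of 0.619 over 17 genes, 16 of them above 0, 0 past the threshold and 4 higher at an unadjusted p under 0.05. This median was 0.06 without Dox 48 h replicate 3 and 0.925 without Dox 48 h replicate 1. Their mean level was 6.20, 7.22 and 6.27 on the Dox 72 h arrays. On the Dox 48 h arrays it was 6.75, 6.10 and 5.10, so both times overlapped. Cxcl9, a chemokine for T cells, had 6.85, 7.44 and 6.94 after 72 h, against 6.94, 5.66 and 4.81 after 48 h (adjusted p = 0.332). The size of this rise therefore rested on 1 array of the earlier time.

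Antigen presentation genes leaned the same way. All 14 measured MHC class I presentation genes and all 9 measured MHC class II genes had differences above 0, with medians of 0.507 and 0.537. None of them passed the threshold, and 6 and 9 were higher at an unadjusted p under 0.05. The class I median was 0.298 without Dox 48 h replicate 3. For Psmb8, an immunoproteasome subunit, the arrays had 10.65, 10.72 and 10.76 after 72 h, against 10.40, 10.24 and 10.03 after 48 h (0.49, adjusted p = 0.184). H2-K1, a classical class I heavy chain, had 10.81, 10.91 and 10.75, against 10.38, 10.43 and 9.65 (0.67, adjusted p = 0.321).

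Within class II, H2-DMa, which helps load peptides, had 8.54, 8.74 and 8.73 after 72 h, against 8.27, 8.12 and 8.0 after 48 h (0.54, adjusted p = 0.171). H2-Aa, the alpha chain of I-A, had 5.88, 6.85 and 7.60 after 72 h, against 5.32, 5.30 and 4.61 after 48 h (1.70, adjusted p = 0.211). H2-Ab1, its beta chain, had 8.35, 9.0 and 9.44, against 8.38, 8.05 and 7.99 (0.79, adjusted p = 0.265), with 1 Dox 72 h array within the 48 h range. The third Dox 72 h array was the highest in both chains. Without it the class II median was 0.397.

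Markers of several cell types other than the leukemia had differences above 0 beside these lists. Median differences were 0.295 for 12 measured T cell markers (11 above 0), 0.287 for 11 B cell markers (11 above 0), 0.457 for 8 platelet and megakaryocyte markers (7 above 0) and 0.103 for 9 conventional dendritic cell markers (7 above 0). For erythroid markers the median was 0.737, but only 7 of 15 were measured, under 80%, and 6 were above 0. Without Dox 72 h replicate 3 the medians were 0.11 for T cell, 0.101 for B cell, 0.12 for platelet and 0.184 for erythroid markers, and 0.116 for dendritic cell markers, which were at 0.202 without Dox 72 h replicate 1. Not every list leaned upward: red pulp macrophage markers had a median of -0.137 (3 of 13 above 0), or -0.432 without Dox 72 h replicate 3, and medians were 0.043 for eosinophil and 0.038 for plasmacytoid dendritic cell markers. The mean level of T cell markers was 4.32, 4.25 and 5.20 on the Dox 72 h arrays and 4.08 to 4.14 at 48 h. B cell markers had 4.68, 4.62 and 5.33, against 4.50 to 4.61. The third control array was also the highest of its group in the T cell, B cell, NK cell, erythroid and platelet lists. Class II genes are also expressed by B cells and dendritic cells, and the part of these cells in the class II levels was not tested.

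Primary granule genes, the first granule proteins of neutrophil precursors, had fallen by 48 h and showed differences above 0 afterwards in 12 of 12 genes. The median was 0.231, with 0 past the threshold by limma and 4 higher at an unadjusted p under 0.05. Against control the list stood 0.718 lower at 48 h (median -0.718) and 0.411 lower at 72 h (median -0.411), with 6 and 4 of its genes called below control. Fcnb, a lectin of neutrophil granules, had 6.03, 6.26 and 6.07 after 72 h, against 4.96, 4.95 and 5.0 after 48 h (1.15, adjusted p = 0.161, and 0.016 without control replicate 3). Elane, neutrophil elastase, had 12.23, 12.23 and 12.27, against 12.04, 12.00 and 12.12 (0.19, adjusted p = 0.307). Both were without overlap between the times.

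In the imprinted Dlk1-Dio3 region of chromosome 12, which on the maternal copy makes noncoding RNAs that carry small nucleolar RNAs (snoRNAs) and miRNAs, 1 of 9 measured genes was lower again at 72 h. It was AF357425, a snoRNA of this region, which had 3.89, 3.80 and 3.95 after 72 h, against 5.41, 5.31 and 5.29 after 48 h and 7.98, 7.80 and 7.26 in controls. The difference was -1.45 ± 0.165 (adjusted p = 0.024), and no other of the 22180 genes was called both below control at 48 h and lower at 72 h than at 48 h. The call of AF357425 held only without control replicate 1 or 3, with adjusted p up to 0.102. AF357355, a second snoRNA, had 2.71, 3.94 and 2.99 after 72 h, against 4.78, 5.03 and 4.80 after 48 h (-1.65, adjusted p = 0.0714, and 0.00758 without Dox 72 h replicate 2).

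Rian, the noncoding RNA that hosts snoRNAs of the region, had 3.43, 3.48 and 3.16 after 72 h, against 4.08, 3.85 and 3.88 after 48 h (-0.58, adjusted p = 0.322). Dlk1, the protein-coding gene of the paternal copy, had 4.88, 5.37 and 4.83, against 5.66, 5.29 and 5.66 (-0.51, adjusted p = 0.398), with 1 array overlapping. Dio3os differed by -0.32, AF357426 by -0.08, Dio3 by -0.04, AF357341 by 0.05 and Meg3 by 0.003, all with adjusted p of 0.396 or more. The list had 9 of 14 members measured, under 80%, and a median difference of -0.318, or -0.195 without Dox 72 h replicate 3. The lower quartile of all probe sets was 2.91 to 2.96 on the 9 arrays, close to the level of AF357355 on 2 of the Dox 72 h arrays and to that of Dio3, AF357341 and AF357426 on all of them.

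Several programs gave no call between the times. Of 21 pluripotency genes and 14 epithelial genes of early reprogramming 0 passed by limma, with medians of 0.037 and -0.009 and 2 and 1 at an unadjusted p under 0.05. BCL2 family genes (15 measured, median 0.028) and caspases, death receptors and necroptosis genes (20 measured, median -0.018) had 0 calls, with 2 and 3 at an unadjusted p under 0.05. Of 16 enzymes of H3K9 methylation 0 passed (median -0.095). At an unadjusted p under 0.05, 5 of them were lower and 2 higher, against 1448 and 1347 of all 22180 genes. Their mean level was 7.22 to 7.25 on the Dox 72 h arrays and 7.28 to 7.35 on the Dox 48 h arrays. In controls it was 7.19 to 7.27. With 3 arrays per group a gene below the threshold is not shown to be unchanged. Just inside the threshold stood Pmp22, Dennd4a and Gm6525 (adjusted p = 0.0479), and just outside it Mdm1, Myo1e, Oasl1, Tbc1d24 and Ptpn12 (adjusted p = 0.0559).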

How the data were processed

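Mouse Gene 2.0 ST arrays, 1 per sample in 3 groups of 3, measured RNA from sorted spleen leukemia cells. The log2 values per probe set were deposited by the authors. Their methods give RMA in the oligo package, which subtracts background, equalises array distributions and summarises probes, but MAS5 stands in the submitters' notes. The values were used as deposited, and background correction compresses differences of dim probe sets. Scanner files and detection calls were not used here.

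Of 41345 probe sets, 23521 had 1 gene symbol, 1820 several and 16004 were not listed in the platform annotation. For 1082 genes with over 1 probe set the one with the highest mean over 9 arrays was kept, leaving 22180 genes. limma (version 3.58.1, R 4.3.3; lmFit and eBayes, 1 mean per group, 6 residual degrees of freedom, two-sided) was fitted to all probe sets and tested on simulated data. Benjamini-Hochberg adjustment ran over all probe sets (threshold 0.05). A gene past the threshold between the times was called reversed where 48 h had passed against control the other way, continued where it had passed the same way, and added where only 72 h passed, in the same direction. The number of arrays limits precision.

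Named genes are the 20 largest rises and falls past the threshold without overlap, up to 10 rises of smallest p, the 4 factors, the Dlk1-Dio3 and transient 48 h lists, and the 4 smallest-p members of each list described; predicted genes, small RNAs and accession-like symbols were left out of the ranking. Others given for context, such as Csf1r, Ccr2, Cd80, Cdkn1a, Bbc3, Sox4, H2-Ab1 and Usp18, were named after their values were seen. The members and the 59 gene lists (45 of pathways, 14 of markers) were chosen with earlier results of these data known. Alternatives were other scalings, filters, fits and probe set summaries, a replicate block and leaving out each array.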

Additional observations from a re-analysis of the deposited data

Results flagged for a closer look

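Pi16 differed in direction between the times: it was called below control after 72 h (-0.63, adjusted p = 0.0249) and above control after 48 h (0.61, adjusted p = 0.0297). The direct difference, 72 h minus 48 h, was -1.24 (adjusted p = 0.00649 by limma), with all 3 Dox 72 h arrays below all 3 Dox 48 h arrays. Both comparisons with control share the control arrays. With 3 arrays per group, single arrays were not tested as outliers. Pairs of arrays that held the third Dox 72 h array had correlations of 0.9637 to 0.9826. Pairs without that array had 0.9796 to 0.9914.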

How the results depend on the processing

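The direction of all 65 called genes was the same under every alternative that tested them, but counts moved. The 6 genes past the threshold under all 9 other settings were Cd109, Pgap1, Nt5e, Cyp11a1, Nr4a1 and Cd86. Of these, Cyp11a1 had equal deposited values on all Dox 72 h arrays. With median centring 1 gene was higher and 5 were added, and with quantile normalization 5 probe sets were higher; the median difference of all genes was then 0.0672 and 0.0353. With dim probe sets left out, 13 probe sets were higher and 164 lower, 4 genes were higher and 108 lower, and 84 were reversed, 16 added and 4 continued. With only the 6 Dox arrays, 17 probe sets and 14 genes were lower, and 12 members of the gene lists passed, against 21. A trend and robust prior gave 6 higher probe sets and 2 continued genes, array weights 6 higher probe sets, and adjustment over genes only 2 continued genes (89 lower, 3 higher). The mean of a gene's probe sets kept 62 of the 65 calls.

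Leaving out 1 array, which also removes a degree of freedom, gave 0 to 3 higher and 13 to 60 lower probe sets, 0 to 1 higher and 13 to 41 lower genes, 9 to 17 list members, 10 to 33 reversed, 1 to 6 added and 0 to 1 continued genes. Of the 65 genes, 12 passed in every such fit, 5 in 5 to 8, 33 in 1 to 4 and 15 in 0. Same-numbered Dox 72 h and Dox 48 h arrays deviated with correlations of -0.407, 0.082 and -0.237, which gave no sign of pairing by number. With 3 arrays per group such correlations cannot exclude a pairing. With a replicate block 0 probe sets were higher and 11 lower, 0 genes higher and 10 lower, with 5 list members, 9 reversed, 1 added and 0 continued. The causes of these shifts were not tested beyond what the removal of arrays or probe sets itself changes.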

Other observations

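Neutrophil genes outside the primary granules did not move as 1 group. Of 20 measured secondary granule and mature neutrophil genes, 14 had differences of 0 or below and the median was -0.221, with 0 past the threshold by limma, 7 lower and 1 higher at an unadjusted p under 0.05. Lcn2, a protein that binds bacterial siderophores, had 10.27, 10.36 and 10.15 after 72 h, against 10.75, 10.97 and 10.81 after 48 h (-0.58, adjusted p = 0.0559). Chil3, a chitinase-like protein, had 8.78, 9.63 and 8.07 after 72 h, against 10.49, 11.31 and 9.79 after 48 h (-1.70, adjusted p = 0.199). Camp, an antimicrobial peptide of the same granules, had 7.2, 7.91 and 7.59 after 72 h, against 5.67, 6.28 and 6.41 after 48 h (1.44, adjusted p = 0.196), so members of this list lay apart in opposite directions.

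Genes of oxidative phosphorylation had differences above 0 in 21 of 22 members (median 0.135, 0 past the threshold by limma, 7 higher at an unadjusted p under 0.05, median 0.065 without Dox 72 h replicate 3). Genes of DNA replication had 19 of 22 above 0 (median 0.086), and those of mitosis 8 of 21 (median -0.033).

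A dimmer probe set of Dpep2, a dipeptidase, was lower after 72 h (-1.97, adjusted p = 0.0242) while its brightest probe set did not pass.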
